A study of Homo sapiens with 6 samples.

Results

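The 39 genes described here encode the proteins that repair DNA double-strand breaks by homologous recombination and DNA crosslinks by the Fanconi pathway, together with the checkpoint kinases and mediators that signal such damage. They were chosen by name, and every one of the 39 was found on a single row of a table of 58884 genes. RNA-seq was done on KYSE70, a long-established line of human esophageal squamous carcinoma cells that carries a gain-of-function mutation in NFE2L2, the gene of the transcription factor NRF2. It was also done on NRF2null-KYSE70, a derivative in which CRISPR-Cas9 cutting left a frameshift in exon 2 of NFE2L2. The study saw a faint, smaller NRF2 protein band in this derivative and stated that NRF2 was not completely removed from it. Each line gave 3 libraries, 6 in all, from untreated cells in RPMI1640 medium with fetal bovine serum and antibiotics. NRF2null-KYSE70 was grown from 1 cell and is 1 clone, so whatever else sets that clone apart from the parental culture cannot be told apart from the edit. The p-values measured the spread between libraries of the same line, which may be technical. The study set out to find further ways in which the drug pyrimethamine inhibits NRF2. Between these lines it compared differentiation, growth and the response to fluorouracil, cisplatin and radiation. Of these treatments, cisplatin makes crosslinks and radiation makes breaks.

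Homologous recombination copies lost sequence from the sister chromatid. The broken end is sensed and cut back to a single strand, BRCA1, PALB2 and BRCA2 load the recombinase, paralogs and helper proteins steady and move the filament, and nucleases or helicases resolve the joint. At a crosslink, the Fanconi core complex attaches ubiquitin to FANCD2 and FANCI, which clamp onto DNA and bring in nucleases. ATM and ATR signal through CHEK2 and CHEK1 to halt the cell cycle while repair goes on.

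All 39 genes were well covered. The lowest mean was 277 normalized counts, RAD54B in KYSE70, and the highest was 17230, RBBP8 in NRF2null-KYSE70. A normalized count is a read count divided by 1 size factor per library, and the libraries held between 52072801 and 63975313 reads. The fewest reads for any of the genes in any library were 268. The coefficient of variation between libraries of a line had a median over the genes of 4.16% in KYSE70 and 4.65% in NRF2null-KYSE70. NFE2L2 itself stayed detected after the edit, at 9928 ± 102 normalized counts in the parental line and 6093 ± 319 in the clone (SD, n = 3), and counts over a whole gene do not show a frameshift. Of the markers of other cell types, PTPRC, a leukocyte gene and the 1 of 5 immune markers above a mean of 10, was at 0 to 1.05 normalized counts in KYSE70 and 40.2 to 47.9 in the clone. COL1A1 and COL3A1, 2 of 7 stromal markers above a mean of 10, fell, whereas PDGFRB, a stromal marker below that mean, was at 0 in KYSE70 and at 12.2 to 15.98 in the clone. VWF, the 1 of 4 endothelial markers above a mean of 10, rose. The defining markers DCN, COL1A2 and KDR were at 0. All 12 squamous carcinoma markers were detected, with a summed level of 481378 to 486706 in KYSE70 and 361577 to 366763 in the clone. KRT5, at a mean of 209917 in KYSE70 and 124640 in the clone, weighs most in that sum. Of the 12 markers, 7 fell, 4 rose (KRT6A, CDH1, EPCAM and SOX2) and 1, KRT18, did not pass the test (limma, adjusted p under 0.05). The part of these differences in the repair genes' values was not tested.

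Across the 39 genes, 14 fell and 2 rose in NRF2null-KYSE70, and 23 did not pass the test (limma, adjusted p under 0.05). The genes that fell were RAD50, EXO1, BRCA1, PALB2, BRIP1, RAD51B, RAD52, RAD54L, FANCD2, SLX4, EME1, ATR, CHEK1 and TOPBP1, and those that rose were CHEK2 and TP53BP1. Changes were small. FANCD2 had the largest as measured, a level 36.5% below that of KYSE70, though not with the median of its arm or its neighbours subtracted (-0.17 and -0.22, where ATR was at -0.78 and RAD51B at -0.84). Of the 39 genes, 0 reached a doubling or its inverse, that is, a log2 fold change of 1 or more in size, by limma, DESeq2 or edgeR. At an unadjusted limma p under 0.05, 18 of the 39 would have passed, beside 9893 of the 15994 genes tested in the whole table. The share called was 41.0% of the genes, against 57.6% of the 15994 genes tested in the whole table. By direction, 35.9% fell against 28.3% of all genes tested, and 5.13% rose against 29.3%. Of all genes tested, 14.7% passed the adjusted p with a change of that size. After the median of each chromosome arm had been subtracted, 17 fell and 5 rose, and no share over all genes was taken for that setting. These shares describe the list, and no test of the list was made.

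Each fold change is that of the clone over its parental line, on the scale of log2(normalized count + 1). Their median over the 39 genes was -0.10, against -0.01 over all genes tested, and the median size regardless of sign was 0.13 against 0.36. The log2 fold change was below 0 for 28 genes and above 0 for 11. In 18 genes every library of the clone lay below every library of KYSE70, where 31.3% of all genes tested did so. In 4 genes every library of the clone lay above, where 32.1% of all genes did so, and in the other 17 genes the libraries overlapped. Every 95% interval of the 39 genes stayed inside a doubling either way, with bounds from 0.593-fold to 1.37-fold. For the 23 genes that did not pass the test, the intervals ran from 0.764-fold to 1.33-fold, which are the differences that 3 libraries a line still allow for them. In bulk RNA, a lower level per cell and fewer cells that express the gene cannot be told apart.

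**Figure D1:**
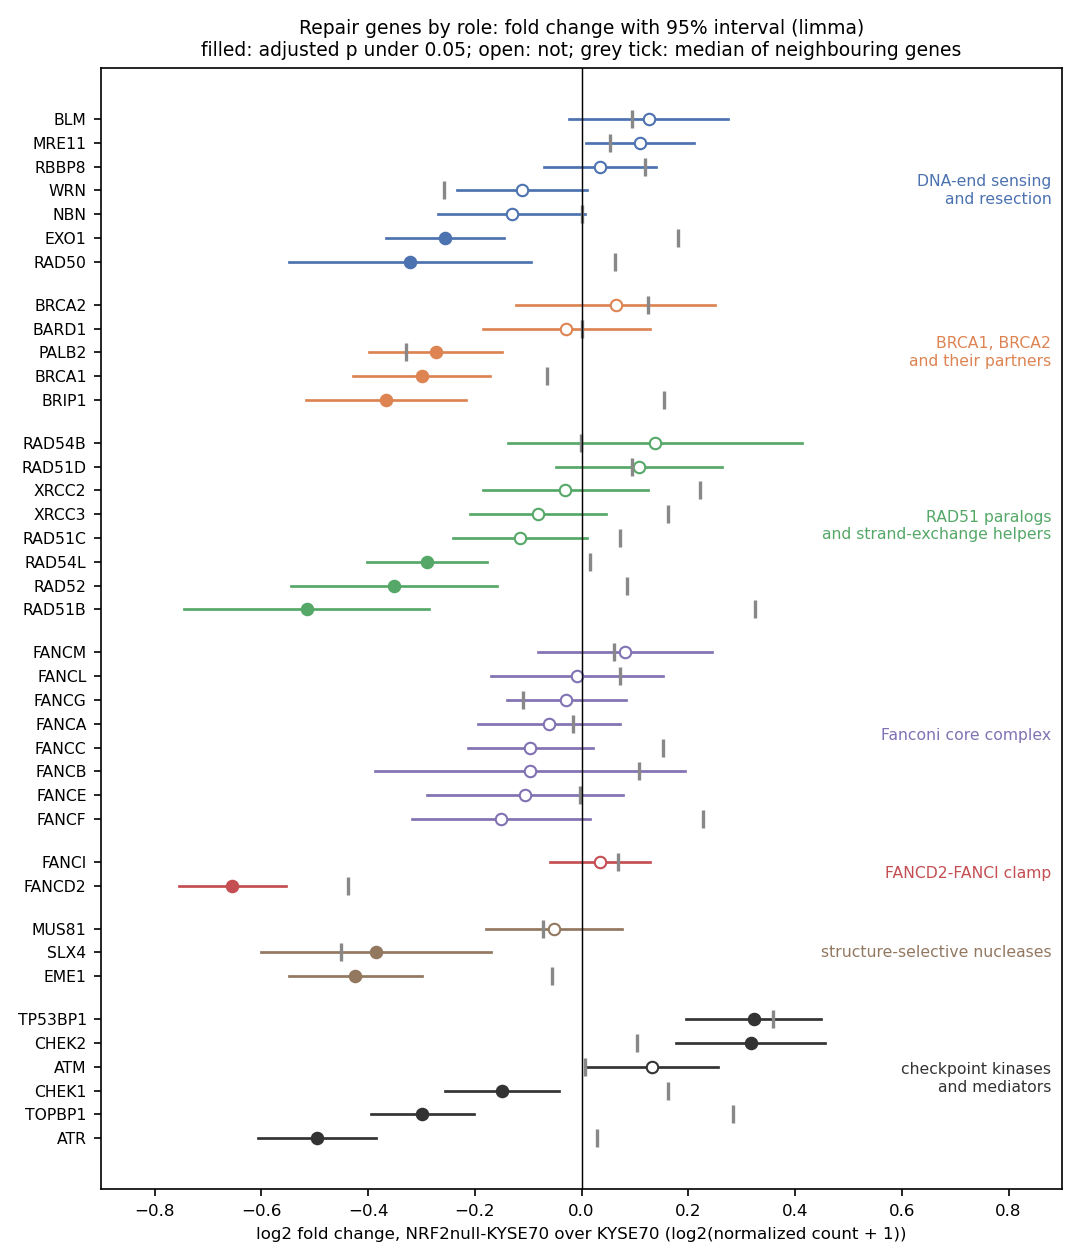
Log2 fold change of each of the 39 genes (x axis, NRF2null-KYSE70 over KYSE70) with its 95% interval, grouped by role, filled where the limma adjusted p was under 0.05 and open where it was not; the grey tick is the median fold change of the genes around it on the chromosome. FANCD2, at -0.65, stands farthest from 0, and all 8 Fanconi core genes are open circles near 0.

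Of the 7 genes of DNA-end sensing and resection, 2 fell and 0 rose. RAD50, the structural ATPase that tethers broken ends, fell to 80.1% of its KYSE70 level, from 519 ± 29.0 to 415 ± 33.7 normalized counts (SD, n = 3). Its libraries ran from 492 to 549 in KYSE70 and from 378 to 442 in the clone, without overlap, giving a log2 fold change of -0.32 ± 0.10 (SE; adjusted p = 0.0188 by limma). The call rested on single libraries, since the adjusted p was 0.0728 without library 3 of KYSE70 and 0.0784 without library 2 of the clone, in a range of 0.00362 to 0.0784 over the alternatives. The annotated exons of RAD50 share 76.9% of their bases, on the same strand, with another gene model, ENSG00000283782, which was listed at 0. The level of RAD50 is uncertain for that reason. EXO1, the exonuclease of long-range resection, fell to 83.8%, from 4512 ± 110 to 3779 ± 138, a log2 fold change of -0.26 ± 0.05 (adjusted p = 0.000834).

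RAD50 works in a complex with the nuclease MRE11 and the adaptor NBN, and of these 3 genes only RAD50 passed the test. MRE11 had a mean of 6599 ± 165 in KYSE70 and 7118 ± 184 in the clone, with no overlap between the lines, but its adjusted p was 0.0609. NBN stood at 1936 ± 96.9 and 1766 ± 58.3 (adjusted p = 0.0931). RBBP8, known as CtIP, starts resection and had the highest level in the list, at 16835 ± 700 and 17230 ± 584. The helicases BLM and WRN had log2 fold changes of 0.13 and -0.11, neither of which passed the test.

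Among BRCA1, BRCA2 and their partners, 3 of 5 genes fell and 0 rose. BRCA1, the ubiquitin ligase that promotes resection and recruits PALB2, had 5934, 5784 and 5271 normalized counts in the libraries of KYSE70 and 4841, 4591 and 4362 in those of the clone. Every library of the clone was below every library of KYSE70, with a log2 fold change of -0.30 ± 0.06 (SE; adjusted p = 0.00079 by limma). BARD1, its obligate partner in the ligase, had means of 1784 ± 24.2 and 1753 ± 163, and its libraries overlapped. The log2 interval of its difference ran from -0.19 to 0.13.

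PALB2, which bridges BRCA1 to BRCA2, had 2539, 2729 and 2514 normalized counts in KYSE70 and 2102, 2173 and 2161 in the clone. The lines did not overlap, and the level fell to 82.7% (log2 fold change -0.27 ± 0.06, limma adjusted p = 0.00123). The call depended on its chromosome arm, 16p, whose median was -0.49. With the median of the arm subtracted PALB2 passed the test as higher, at 0.21 (adjusted p = 0.0057), and with that of its neighbours subtracted it stood at 0.06 (adjusted p = 0.424), in a range of 0.000111 to 0.424 over the alternatives. BRCA2, which loads the recombinase, had 1890, 2010 and 1575 in KYSE70 and 2011, 1846 and 1840 in the clone. Its libraries overlapped, KYSE70 reached lower than the clone, and the adjusted p was 0.548. BRIP1, the helicase that binds BRCA1 and is also a Fanconi gene, fell to 77.4%, with libraries from 1982 to 2328 in KYSE70 and 1604 to 1692 in the clone (log2 fold change -0.37 ± 0.07, adjusted p = 0.00056).

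Of the 8 recombinase paralogs and strand-exchange helpers, 3 fell and 0 rose. RAD51B had the largest change of the group and fell to 70.1%, with libraries from 573 to 645 in KYSE70 and 385 to 471 in the clone (log2 fold change -0.52 ± 0.11, limma adjusted p = 0.00103). The other paralogs did not pass the test. RAD51C had means of 2371 ± 19.1 and 2191 ± 104 without overlap (adjusted p = 0.108), RAD51D 1063 ± 9.82 and 1146 ± 64.3, XRCC2 3488 ± 83.0 and 3428 ± 357, and XRCC3 3585 ± 19.6 and 3393 ± 239. XRCC3 shares 76.7% of its exonic bases with KLC1 on the opposite strand, so without a stated strand setting its reads and those of KLC1 cannot be told apart.

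RAD52, which anneals complementary strands, fell to 78.3%, from 667 ± 34.3 to 522 ± 13.3 (log2 fold change -0.35 ± 0.09, limma adjusted p = 0.0044). RAD54L, the motor protein that aids strand invasion, fell to 81.8%, from 4679 ± 231 to 3826 ± 46.7 (log2 fold change -0.29 ± 0.05, adjusted p = 0.000388). RAD54L shares 19.9% of its exonic bases with LRRC41 on the opposite strand, a gene with a mean of 6698. RAD54B, a relative of RAD54L, was at 277 ± 31.0 and 303 ± 6.47, with overlap. Of the exonic bases of RAD54B, 66.0% are also those of FSBP on the same strand, and its value is uncertain for that reason.

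Of the 8 Fanconi core complex genes, 0 passed the test by limma, DESeq2 or edgeR, and 0 had an unadjusted limma p under 0.05. FANCC and FANCF passed as lower with libraries scaled to their totals (adjusted p = 0.0178 and 0.0241) and with the median of their neighbours subtracted (-0.25 and -0.38, adjusted p = 0.00196 and 0.00133). As measured, the log2 fold changes ran from -0.15 for FANCF to 0.08 for FANCM. FANCL, the subunit that attaches ubiquitin, was at 1862 ± 39.96 and 1857 ± 186, with a log2 interval from -0.17 to 0.15. FANCA and FANCG, scaffold subunits, were at 95.9% and 98.1% of their KYSE70 levels. FANCF, an adaptor within the complex, and FANCC were the members whose libraries did not overlap, at 89.9% (adjusted p = 0.112) and 93.6% (adjusted p = 0.149). FANCB was the least certain, with a log2 interval from -0.39 to 0.19. FANCE was at 92.7% and FANCM, a DNA translocase that anchors the complex, at 106%, both with overlap.

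Of the clamp that the core complex modifies, FANCD2 fell and FANCI did not pass the test. FANCD2 had 6182, 6306 and 6382 normalized counts in KYSE70 and 3915, 4021 and 4054 in the clone. The gap between the lines was many times the spread within either, and the level fell to 63.5% (log2 fold change -0.65 ± 0.05, SE, limma adjusted p = 1.05e-07). FANCI, its partner, had 10278, 10185 and 10208 in KYSE70 and 10454, 10739 and 10232 in the clone. Its libraries overlapped, and the log2 interval of the difference ran from -0.06 to 0.13. FANCD2 has pseudogene copies elsewhere in the genome, as do BRCA1 and CHEK2, and how reads with several alignments were counted is not given in the sources used here.

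The 250 bases before the FANCD2 start site are shown because FANCD2 had the largest measured change and held the list's 1 match to TGACNNNGC, the core of the antioxidant response element that NRF2 binds. The stretch is chr3:10026187-10026436 on the plus strand of GRCh38.p14 (RefSeq), and the capitals mark the match, which begins at base 75.
FANCD2: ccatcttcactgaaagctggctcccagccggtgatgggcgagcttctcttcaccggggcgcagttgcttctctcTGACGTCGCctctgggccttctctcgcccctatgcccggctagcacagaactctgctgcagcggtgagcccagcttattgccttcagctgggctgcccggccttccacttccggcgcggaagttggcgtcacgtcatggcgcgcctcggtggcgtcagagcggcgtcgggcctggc
The FANCD2 start in GENCODE lies inside this window. A match describes letters and not binding. The same letters were in 11.03% of all promoters searched and in 2.86% of those of the repair genes. The genes around FANCD2 had a median log2 fold change of -0.44, and with it subtracted FANCD2 stood at -0.22.

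Of the 3 structure-selective nuclease genes, 2 fell and 0 rose. EME1, the regulatory subunit of a nuclease that cuts joint molecules, fell to 74.5%, with libraries from 2251 to 2338 in KYSE70 and 1658 to 1727 in the clone (log2 fold change -0.42 ± 0.06, limma adjusted p = 3.53e-05). MUS81, the catalytic subunit of the same nuclease, was at 2069 ± 82.0 and 1996 ± 37.7, with overlap, and its log2 interval ran from -0.18 to 0.08. SLX4, the scaffold that holds this and other nucleases, fell to 77.1%, from 1237 ± 53.2 to 953 ± 147 (log2 fold change -0.39 ± 0.10, adjusted p = 0.00502). That call was lost and its sign turned with the median of the arm subtracted (0.10, adjusted p = 0.403) or that of its neighbours (0.07, adjusted p = 0.599), in a range of 1.61e-05 to 0.599. EME1 shares 16.4% of its exonic bases with LRRC59 on the opposite strand, a gene with a mean of 26744 normalized counts. MUS81 shares 13.9% with CFL1, also on the opposite strand and at a mean of 36268.

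The 6 checkpoint kinases and mediators held both genes that rose, and 3 that fell. ATR, the kinase that answers to single-stranded DNA at stalled forks, had 7395, 7640 and 7082 normalized counts in KYSE70 and 5452, 5214 and 5022 in the clone. The lines lay well apart, and the level fell to 70.9% (log2 fold change -0.50 ± 0.05, SE, limma adjusted p = 3.39e-06). TOPBP1, which activates ATR, fell to 81.3%, with libraries from 12142 to 12254 in KYSE70 and 9631 to 10277 in the clone (log2 fold change -0.30 ± 0.04, adjusted p = 8.13e-05). CHEK1, the kinase downstream of ATR, had 9094, 9445 and 9154 in KYSE70 and 8619, 8515 and 7863 in the clone. The libraries did not overlap but came close, and the log2 fold change was -0.15 ± 0.05 (adjusted p = 0.0205). That call was lost without library 2 of KYSE70 (adjusted p = 0.0885), without library 3 of the clone (0.103) and without the trend in the fit (0.0739), in a range of 0.00018 to 0.103 over the alternatives.

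On the side of double-strand breaks, ATM had 3032, 3247 and 2988 normalized counts in KYSE70 and 3494, 3215 and 3445 in the clone. The lowest library of the clone lay below the highest of KYSE70, and the rise of the mean to 110% did not pass the test (log2 fold change 0.13 ± 0.06, limma adjusted p = 0.0652). CHEK2, the kinase downstream of ATM, rose to 125%, with libraries from 3668 to 3932 in KYSE70 and 4321 to 5074 in the clone (log2 fold change 0.32 ± 0.06, adjusted p = 0.000979). TP53BP1, which shields broken ends from resection and opposes BRCA1, rose to 125%, with libraries from 5186 to 5762 in KYSE70 and 6375 to 7183 in the clone (log2 fold change 0.32 ± 0.06, adjusted p = 0.000397). The rise of TP53BP1 was lost with the median of its arm subtracted (-0.0056, adjusted p = 0.947) or that of its neighbours (-0.04, adjusted p = 0.642), in a range of 3.76e-06 to 0.947. TP53BP1 shares 28.8% of its exonic bases with TUBGCP4 on the opposite strand.

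The 250 bases before the start sites of ATR, which fell, and of CHEK2 and TP53BP1, which rose, are shown as examples. They lie at chr3:142578734-142578983, chr22:28741821-28742070 and chr15:43510641-43510890, all on the minus strand of GRCh38.p14 (RefSeq). Capitals mark ATTGG, the reverse complement of CCAAT, the box that the factor NF-Y binds.
ATR: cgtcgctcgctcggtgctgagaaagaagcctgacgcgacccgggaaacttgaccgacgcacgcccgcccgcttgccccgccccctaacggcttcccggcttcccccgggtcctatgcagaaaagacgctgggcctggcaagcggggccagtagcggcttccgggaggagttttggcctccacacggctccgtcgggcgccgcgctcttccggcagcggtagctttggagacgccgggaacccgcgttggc
CHEK2: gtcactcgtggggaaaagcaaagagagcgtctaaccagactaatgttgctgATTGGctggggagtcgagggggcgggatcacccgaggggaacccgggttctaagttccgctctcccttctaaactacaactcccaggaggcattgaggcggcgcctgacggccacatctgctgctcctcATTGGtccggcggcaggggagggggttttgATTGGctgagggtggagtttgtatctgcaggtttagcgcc
TP53BP1: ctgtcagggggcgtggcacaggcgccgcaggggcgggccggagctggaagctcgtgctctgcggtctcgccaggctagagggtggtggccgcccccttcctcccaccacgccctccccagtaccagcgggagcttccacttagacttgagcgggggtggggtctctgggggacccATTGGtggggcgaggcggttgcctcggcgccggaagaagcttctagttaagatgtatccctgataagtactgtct
The CHEK2 stretch held 3 of these boxes, that of TP53BP1 held 1 and that of ATR held none. These promoters were picked after the values had been seen. The box was in 33.0% of all promoters searched. Of the 14 genes that fell, 4 held it, BRIP1, CHEK1, PALB2 and RAD54L. The rise of TP53BP1 was lost with the median of its arm or of its neighbours subtracted. In GENCODE the outermost CHEK2 start lies upstream of its stretch and that of TP53BP1 inside it.

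**Figure D2:**
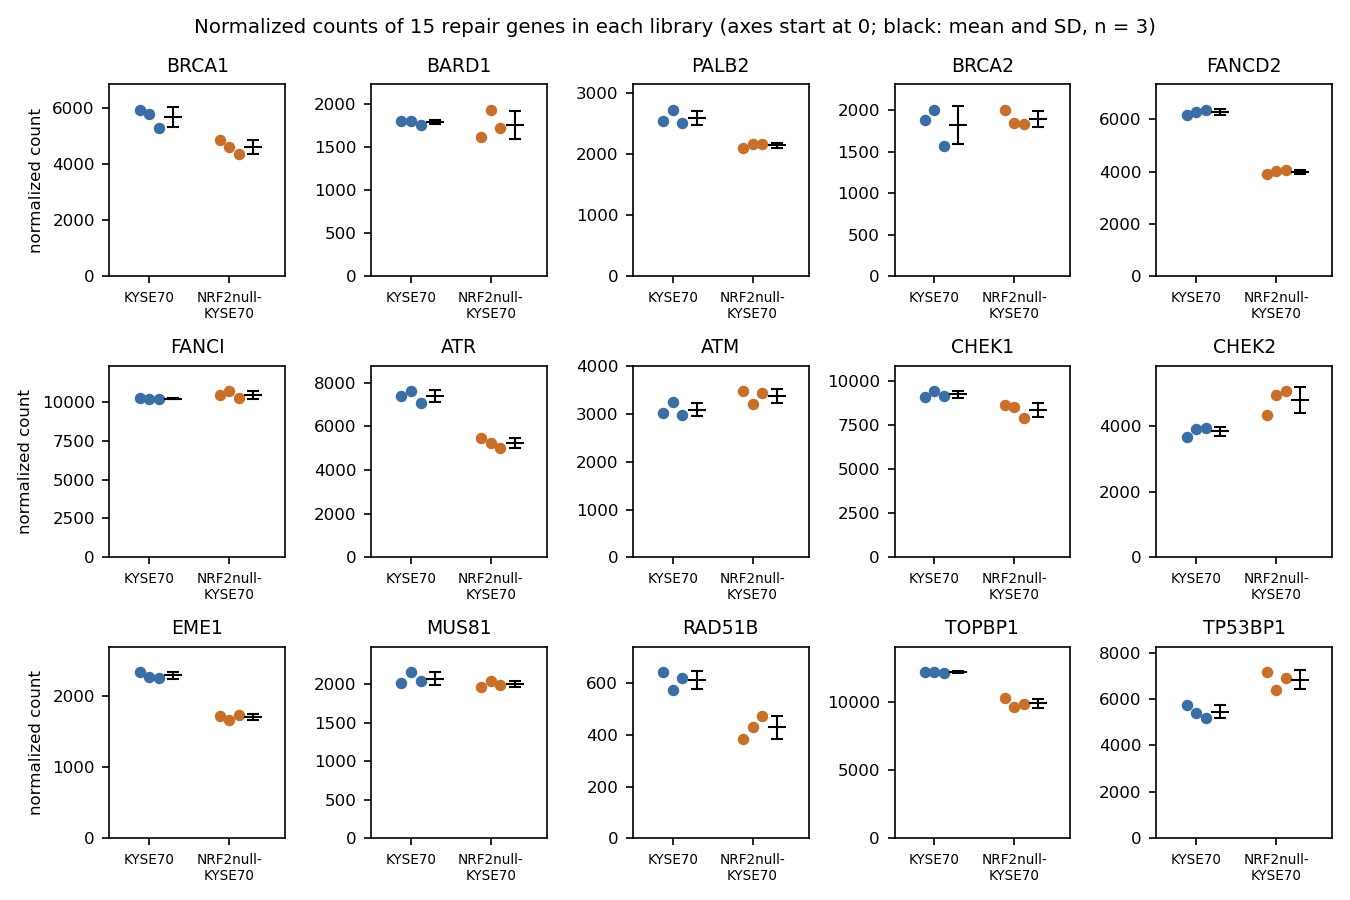
Normalized counts (y axes from 0) of 15 of the genes in each library of KYSE70 (blue) and NRF2null-KYSE70 (orange), with the mean and SD of 3 libraries in black. BRCA1, FANCD2, ATR, EME1, RAD51B and TOPBP1 lie lower in every library of the clone, CHEK2 and TP53BP1 lie higher, and BARD1, BRCA2, FANCI, ATM and MUS81 overlap.

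The motifs were searched on both strands in the 250 bases before the start of 27305 genes, among them 35 of the 39 repair genes, and no motif searched contains another. CCAAT was found in 14 of the 35 (40%) and in 33.0% of all promoters. It was in 4 of the 14 genes that fell, in both that rose and in 8 of the 19 that did not pass the test and had a promoter. The antioxidant response core was in 2.86% of the 35, against 11.03% of all. E2F sites, searched as TTTCGCGC, TTTGGCGC, TTTCCCGC and TTTGCCGC, were in 2 of the 35 (5.71%), FANCA and FANCC, against 2.79% of all. The cell-cycle homology region TTTGAA was in 3 (8.57%), ATM, BRIP1 and FANCC, against 13.6% of all. No match says only that the letters are not in this window.

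The 7 ratios between functional partners were chosen after the values had been seen. A ratio within a library does not depend on how libraries are scaled to each other, but partners on different chromosomes can have surroundings that moved differently. FANCD2 to FANCI was 0.615 ± 0.0123 in KYSE70 and 0.382 ± 0.0125 in the clone (SD, n = 3), a 0.62-fold change. ATR to ATM went from 2.39 ± 0.0457 to 1.55 ± 0.0828, or 0.647-fold. These 2 kinases head the checkpoint branches, and the ratio of the kinases below them, CHEK1 to CHEK2, was 2.41 ± 0.0769 and 1.75 ± 0.225, or 0.724-fold.

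BRCA1 to TP53BP1, which oppose each other at resection, was 1.04 ± 0.0278 in KYSE70 and 0.675 ± 0.044 in the clone, a 0.65-fold change. EME1 to MUS81 went from 1.11 ± 0.0593 to 0.853 ± 0.0339. PALB2 to BRCA2 went from 1.43 ± 0.142 to 1.13 ± 0.0755. BRCA1 to BARD1 was the closest case, at 3.17 ± 0.155 and 2.64 ± 0.324, with the highest library of the clone only just below the lowest of KYSE70, at 3.00 in both. In all 7 pairs, every ratio of the clone lay below every ratio of KYSE70. The pairs and the order within each were set with the values known, so this shared direction follows from the choice. Each had a two-sided exact permutation p of 0.1, adjusted 0.1 over the 7 pairs, the smallest that 3 against 3 can give, so no pair could pass a threshold of 0.05. With the median of each gene's neighbours subtracted, the log2 difference went from -0.62 to -0.20 for BRCA1 to TP53BP1, from -0.69 to -0.18 for FANCD2 to FANCI and from -0.34 to 0.12 for PALB2 to BRCA2, whose sign turned. It was -0.65 for ATR to ATM, -0.52 for CHEK1 to CHEK2, -0.39 for EME1 to MUS81 and -0.20 for BRCA1 to BARD1.

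**Figure D3:**
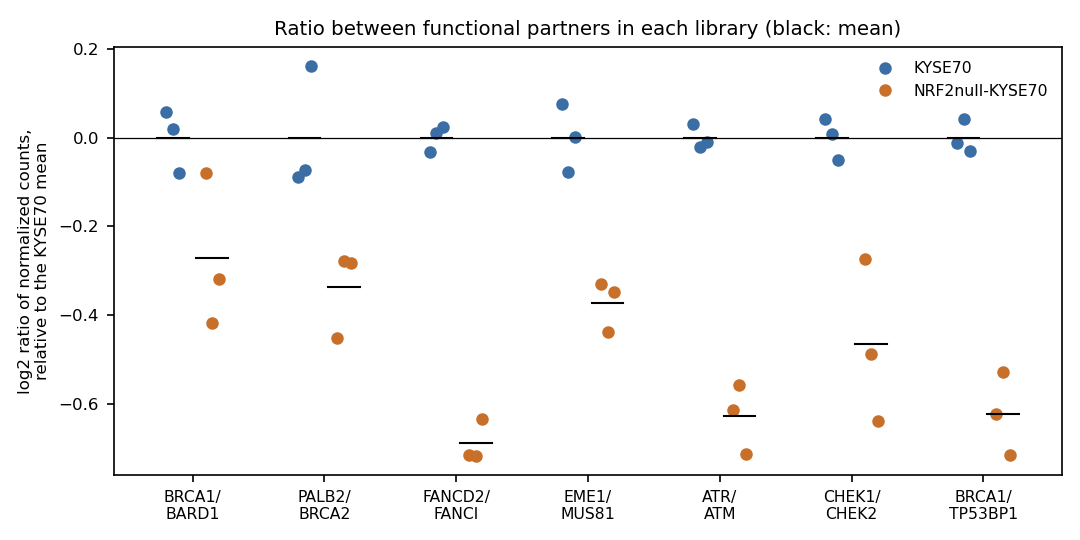
Log2 ratio of normalized counts between 7 pairs of partners in each library (y axis, set to 0 at the KYSE70 mean), KYSE70 in blue, NRF2null-KYSE70 in orange and means in black. FANCD2/FANCI, ATR/ATM and BRCA1/TP53BP1 lie farthest below KYSE70, at fold changes of 0.62, 0.647 and 0.65, and BRCA1/BARD1 nearest.

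Some of the genes moved with the genes around them on the chromosome. The surroundings were taken as the expressed protein-coding genes nearest to each, up to 20 on either side, and summarised by their median log2 fold change. FANCD2 (on 3p) fell by 0.65 on the log2 scale where its surroundings had a median of -0.44, and the difference of -0.22 still passed the test (limma adjusted p = 0.00145). PALB2 and SLX4, both on 16p, had surroundings at -0.33 and -0.45, and after subtraction they stood at 0.06 and 0.07 (adjusted p = 0.424 and 0.599). TP53BP1, on 15q, had surroundings at 0.36 and stood at -0.04 after subtraction (adjusted p = 0.642). These 3 calls were therefore lost and their signs turned, while the other 13 of the 16 kept their call and direction. The subtraction also added 5 genes that fell, FANCC, FANCF, RAD51C, XRCC2 and XRCC3, and 1 that rose, WRN (0.15, adjusted p = 0.0417).

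Other genes fell where the median of their surroundings was above 0, by little for some. RAD51B had surroundings at 0.32 and a difference from them of -0.84, and TOPBP1 had surroundings at 0.28 and a difference of -0.58. ATR had surroundings at 0.03 and a difference of -0.52. The differences of EXO1, BRIP1 and RAD52 from their surroundings were -0.44, -0.52 and -0.44. The number of gene copies in either line was not measured here, and its part in these values was not tested.

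**Figure D4:**
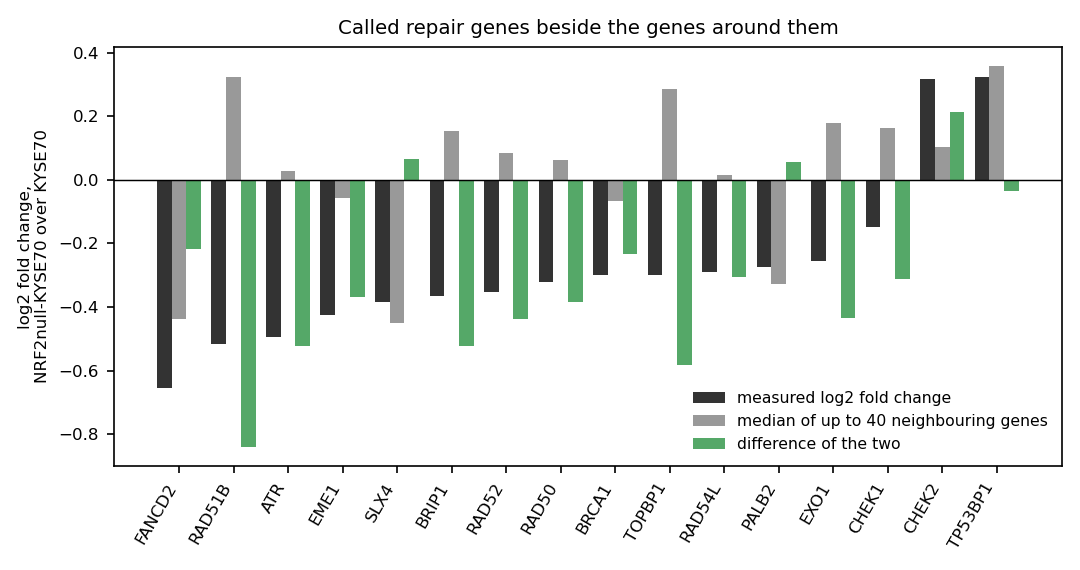
Log2 fold change of the 16 genes that passed the test (black), the median of the genes around each (grey) and the difference between them (green), all as NRF2null-KYSE70 over KYSE70. The grey bars of PALB2, SLX4 and TP53BP1 are longer than the black bars. The grey bars of RAD50, EXO1, BRIP1, RAD51B, RAD52, RAD54L, ATR, CHEK1 and TOPBP1 point the other way, and are longest for RAD51B and TOPBP1.

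Levels of different genes were compared per kilobase of annotated exon. In KYSE70 they ran from 31.5 ± 4.27 normalized counts per kilobase for FANCB to 3315 ± 138 for RBBP8, with a median of 271 over the 39 genes. TOPBP1 at 1665 ± 8.6 and CHEK1 at 1648 ± 33.5 came next and did not differ beyond their spread. RAD54L at 1147 ± 56.6 and EXO1 at 1091 ± 26.5 followed, again within their spread of each other. At the low end stood RAD54B at 52.1 ± 5.82, RAD50 at 49.1 ± 2.74 and FANCL at 49.03 ± 1.05, which lay within their spread of one another. Of the exonic bases of RAD50 and RAD54B, 76.9% and 66.0% also belong to another gene model on the same strand. The levels of RAD50 and RAD54B are therefore uncertain. The order was nearly the same in the clone, with a Spearman correlation of 0.988 across the 39 genes, which share libraries and lengths. With the length of the canonical transcript in place of all exons, RBBP8 remained highest, TOPBP1 and CHEK1 stayed among the highest 5, and FANCL moved from rank 38 to rank 11.

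The rest of the recombination and crosslink machinery was read from lists of other genes. Of 41 other homologous recombination genes tested, 10 rose and 16 fell, and 3 passed an absolute log2 fold change of 1. RADX, which restrains the recombinase at replication forks, fell from 2619 ± 141 to 795 ± 60.1 normalized counts (log2 fold change -1.72, limma adjusted p = 1.31e-09). EME2, the alternative partner of MUS81, fell from 771 ± 66.9 to 253 ± 49.6 (-1.62, adjusted p = 8.37e-07), on 16p where its surroundings were at -0.50. NABP1, a single-strand binding protein, rose from 350 ± 23.0 to 1213 ± 101 (1.79, adjusted p = 7.83e-09). Of 19 other Fanconi and crosslink genes, 5 rose and 9 fell, or 26.3% and 47.4%. Of 24 other checkpoint genes, 7 rose and 9 fell, or 29.2% and 37.5%. In each of these 2 lists, 0 were past a log2 fold change of 1.

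End joining is the route that competes with recombination for a broken end. Of 15 end-joining genes tested, 7 rose and 2 fell, or 46.7% and 13.3%, beside 29.3% and 28.3% of all genes tested. APLF, an end-joining scaffold, rose from 114 ± 18.2 to 244 ± 6.54 normalized counts (log2 fold change 1.11, limma adjusted p = 8.84e-05). Over the 4 lists together 29 genes rose and 36 fell, and this split moved with the scaling, to 19 and 41 with libraries scaled to their totals and to 20 and 38 with quantile normalization.

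Several of the 39 genes, such as BRCA1 and EXO1, are known to be transcribed mostly around S phase, and lists of cell-cycle genes were read beside them. Of 40 G1/S phase genes, 6 rose and 23 fell, or 15% and 57.5%, beside 29.3% and 28.3% of all genes tested. Their median log2 fold change was -0.26, with a summed level of 586804 to 589305 in KYSE70 and 501074 to 506879 in the clone. Of 42 G2/M phase genes, 22 rose and 3 fell, or 52.4% and 7.14%, beside the same shares of all genes. Their median was 0.19, with a summed level of 454844 to 465546 in KYSE70 and 532965 to 552684 in the clone. PCNA, the replication clamp, had the largest fall of the first list, from 30799 ± 703 to 14514 ± 580 (-1.09, limma adjusted p = 1.02e-09), on a stretch of 20p whose surroundings were at -0.83. The part of cell-cycle phase in the values of the repair genes was not tested.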

How the data were processed

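Per the labels and the submitters' processing notes, the authors checked reads with FastQC 0.11.5, trimmed them with cutadapt 1.12, aligned them with STAR 2.6.90c to hg38 and counted them per gene with featureCounts 1.5.1. The notes list mm10 as well. The deposited values are a signal in normalized counts, which the authors made by dividing read counts by a DESeq2 size factor for each library. Strand setting and treatment of multiple alignments were not given in the sources used here. Every value was a whole multiple of that of 1 read (0.889 to 1.14), so whole reads were recovered for 100% of values, within 0.01 of a read. KYSE70 libraries summed to 63975313, 62394913 and 53940290 reads, NRF2null-KYSE70 libraries to 59455298, 60958155 and 52072801. Table columns bear no replicate number, and libraries are numbered by column order within a line.

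The 15994 genes with a mean of at least 10 normalized counts were tested with limma 3.58.1 (R 4.3.3; mean-variance trend, cell line the only term) on log2(normalized count + 1), with Benjamini-Hochberg adjustment over all of them. The 39 genes and the other lists were chosen with earlier results of these data known. All 39 are named. Library values are given for genes past 1.5-fold and for BRCA1, BRCA2, PALB2, FANCD2, ATM, ATR and CHEK1; other genes are named where past a log2 fold change of 1 in a repair list. Further library values, the partner pairs, PCNA, the markers given by name and the promoters shown were picked after their values were seen. Alternatives were other pseudocounts, filters, scalings and limma settings, DESeq2 1.42.0 and edgeR 4.0.16 on recovered reads, leaving out each library, a test against a fold of 1.2, and centring on chromosome arms. Centring on neighbouring genes (also for the ratios) and lengths of canonical transcripts were added after seeing the data. The fit was tested on simulated data. Positions and exons came from GENCODE v44 on hg38, promoters from RefSeq on GRCh38.p14.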

Additional observations from a re-analysis of the deposited data

How the results depend on the processing

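Of the 16 genes that passed the test, 11 kept their call and direction under all 19 alternatives, and 685 of 741 values over the 39 genes kept their direction and side of the threshold. The number that fell was 14 with both DESeq2 and edgeR, 20 with total scaling, 15 with quantile normalization, 13 without the trend, 17 with either centring and 13 to 15 with a library left out. The number that rose was 5 with arm-centring and 2 to 3 with a library left out. The median log2 fold change moved from -0.10 to -0.17 with total scaling, which shifted the median of all genes by -0.0754, and to -0.13 with arm-centring, and was -0.10 to -0.08 with a library left out. Against a fold of 1.2, 3 genes passed, ATR, EME1 and FANCD2, where 0 passed an absolute log2 fold change of 1; that test asks for less, and the 2 counts are not of the same criterion. Genes of the other repair lists that rose were 19 with total scaling against 29. The median level per kilobase in KYSE70 was 647 with canonical transcripts against 271, since all-exon lengths are longer.

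Signs turned in 15 genes, 3 of them called, and the cause was not tested. With arm-centring the log2 fold change was 0.21 for PALB2, 0.10 for SLX4, -0.0056 for TP53BP1, 0.27 for WRN, -0.20 for BLM, -0.067 for BRCA2, 0.048 for FANCC, -0.29 for FANCI and -0.12 for RAD54B. With centring on neighbouring genes it was 0.056 for PALB2, 0.066 for SLX4, -0.035 for TP53BP1, 0.15 for WRN, -0.060 for BRCA2, 0.082 for FANCG, -0.033 for FANCI, 0.022 for MUS81 and -0.084 for RBBP8. Total scaling gave -0.012 for BRCA2, -0.041 for FANCI and -0.042 for RBBP8, and quantile normalization gave -0.090 for FANCI and -0.091 for RBBP8. With a library left out, values crossed 0 for BARD1 (-0.10 to 0.030), BRCA2 (-0.038 to 0.14), FANCG (-0.054 to 0.014), FANCL (-0.084 to 0.057), RBBP8 (-0.00090 to 0.062) and XRCC2 (-0.083 to 0.059), and no value that turned with a library left out passed the test. Among those that turned with a centring, PALB2, WRN, BLM and FANCI passed it in the new direction with arm-centring (adjusted p = 0.0057, 0.00111, 0.0268 and 9.87e-05, limma), and WRN with centring on neighbours (0.0417). The ratio of PALB2 to BRCA2 turned from -0.34 to 0.12 on the log2 scale with centring on neighbours. No paired analysis was possible because the libraries of the table cannot be matched to replicate numbers. Depth limited none of the 39 genes to under 268 reads a library; 3 libraries a line set the width of the intervals.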
